A study of Mus musculus with 8 samples.

Results

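Pyruvate made by glycolysis crosses the inner mitochondrial membrane through a carrier built from MPC1 and MPC2, and inside the matrix it meets a branch point. Pyruvate carboxylase, a biotin enzyme encoded by Pcx, adds carbon dioxide to it to give oxaloacetate, while the pyruvate dehydrogenase complex oxidises it to acetyl-CoA. The complex is switched off when pyruvate dehydrogenase kinases phosphorylate its E1 alpha subunit and switched on again by pyruvate dehydrogenase phosphatases, so the balance of these enzymes steers pyruvate between the routes. The genes described here are Pcx, the complex genes Pdha1, Pdhb and Dlat, the kinase genes Pdk1, Pdk2 and Pdk3, the phosphatase gene Pdp1 and the carrier genes Mpc1 and Mpc2. They were picked by symbol, all 10 were found among the 55492 genes of the tables, and all 10 were among the 13531 genes with enough counts to be fitted.

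The 8 RNA libraries were made from a mouse melanoma line, Yumm5.2, whose labelled strain is C57B/6J. Of these, 4 libraries came from cells cultured for 20 h with 4-OI, labelled as a permeable itaconate, and 4 from cells cultured for 20 h with DMSO, labelled as the control. In this field 4-OI stands for 4-octyl itaconate, an ester of a metabolite that activated macrophages make from the tricarboxylic acid cycle. The labels state no dose for it, all libraries come from a single line, and nothing in the labels says that they came from separate cultures, so the spread between libraries may be technical.

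A library held between 22962963 and 31361677 counts. Of 7 melanocyte markers, Sox10, Mlana, Tyr, Tyrp1 and Dct had at most 2 counts in any library and Pmel at most 8, so the markers that define pigment cells were at or near 0 in a line labelled as melanoma, apart from Mitf at 3.45 TPM with 4-OI and 2.29 TPM with DMSO. The summed melanocyte markers ranged over 3.51 to 3.97 TPM with 4-OI and 2.37 to 3.05 TPM with DMSO. Summed markers reached 2.15 to 2.95 TPM with 4-OI and 2.7 to 3.08 TPM with DMSO for immune cells (5 markers, with Adgre1 and Lyz2 at 0). Most of that was Cd68, at 2.5 TPM with 4-OI and 2.83 TPM with DMSO. For endothelium the summed markers reached at most 0.25 TPM with 4-OI and 0.90 TPM with DMSO (4 markers, with Kdr at 0). They reached 3.01 to 4.44 TPM with 4-OI and 2.71 to 3.83 TPM with DMSO for keratinocytes (4 markers, with Dsg3 at 0). Most of that was Krt10, at 3.66 TPM with 4-OI and 3.23 TPM with DMSO. For fibroblasts they reached 34.4 to 35.4 TPM with 4-OI and 36.8 to 39.1 TPM with DMSO (5 markers, with Lum at 0), most of it Pdgfra at 32.3 TPM with 4-OI and 31.3 TPM with DMSO. The fibroblast markers Col1a1 (1.89 TPM with 4-OI and 4.92 TPM with DMSO) and Dcn (0.643 TPM with 4-OI and 1.66 TPM with DMSO) had the lower values with 4-OI. Their part in the results was not tested.

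The genes were proposed with the differences between 4-OI and DMSO in view, so those differences are given as a description, with no test. CPM below is a gene's count relative to the scaled total count of its library, and TPM is the authors' share of transcripts with length taken into account. The 4-OI and DMSO libraries did not overlap in 4 of the 10 genes, where 35.4% of all fitted genes did not overlap. All 4-OI libraries lay above all DMSO libraries for Pcx and Mpc1 (17.4% of fitted genes) and below them for Pdk1 and Pdk3 (18.0% of fitted genes). The median log2 fold change of the 10 genes was 0.05, beside 0.00046 over all fitted genes, with a median absolute value of 0.14, beside 0.12 over all fitted genes. Bulk RNA cannot tell a smaller number of cells with a transcript from less of that transcript per cell.

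**Figure D1:**
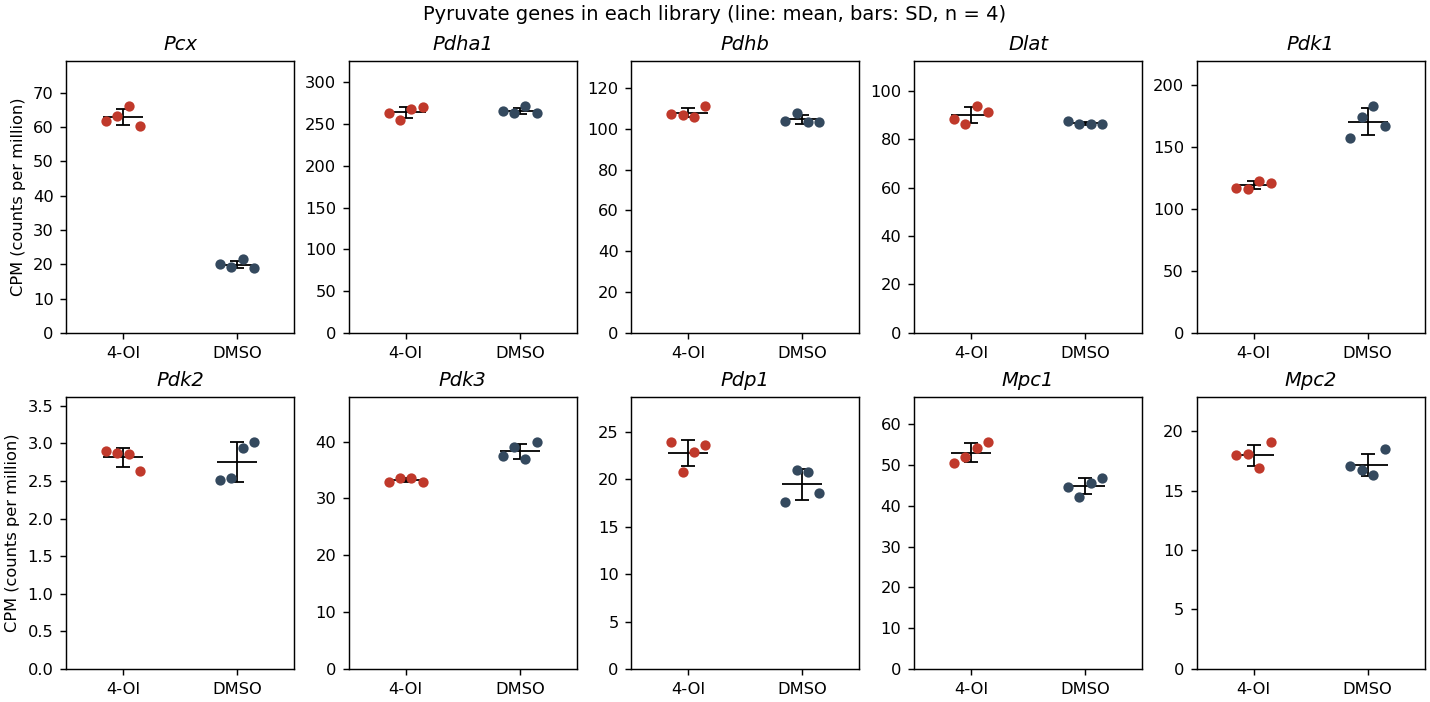
CPM of each of the 10 genes in each library, 4-OI left and DMSO right, with each axis starting at 0, lines at the means and bars of 1 SD (n = 4 libraries a group). The groups stand apart for Pcx, Pdk1, Pdk3 and Mpc1 and overlap for the other genes.

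Pcx, at GRCm38 chromosome 19, 4510472 to 4621752 on the plus strand, had the largest difference of the 10. It had 61.8, 63.2, 66.0 and 60.4 CPM in the 4-OI libraries, against 20.0, 19.1, 21.4 and 19.0 CPM in the DMSO libraries. The lowest 4-OI library thus stood far above the highest DMSO library, and the spread within each group was small, with coefficients of variation of 3.81% with 4-OI and 5.64% with DMSO. The means were 62.9 ± 2.40 CPM with 4-OI and 19.9 ± 1.12 CPM with DMSO (SD, n = 4 each). The log2 fold change came to 1.66 (standard error 0.04, 95% confidence interval 1.57 to 1.76), or 3.17-fold. Among all fitted genes, 43 had a log2 fold change at least as high, Pcx included. Seen as a level per length, Pcx stood above 58.8% of the fitted genes with 4-OI and above 34.4% with DMSO.

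The gene has several annotated starts, and the tables give 1 value per gene, so they do not show which start was used. Of the 10 genes, 9 have promoter windows in RefSeq on GRCm38.p6, 13 windows in all, each holding 250 bases before and 50 bases after an annotated start. The Pcx starts of these windows lie 83.8 kb apart. Both windows are shown because Pcx carries the main difference, with those of Pdk1 and Mpc1 for comparison, the genes with the next largest log2 fold changes down and up. Capitals mark matches on either strand to the core ACGTG or GCGTG read by hypoxia-inducible factors, to the E-box CACGTG, which holds ACGTG on both strands, to the antioxidant response element core TGACNNNGC bound by NRF2, to the PPAR element of AGGTCA repeated after 1 base, and to the estrogen-related receptor element TCAAGGTCA.
Pcx upstream start, chr19:4510222-4510521, plus strand: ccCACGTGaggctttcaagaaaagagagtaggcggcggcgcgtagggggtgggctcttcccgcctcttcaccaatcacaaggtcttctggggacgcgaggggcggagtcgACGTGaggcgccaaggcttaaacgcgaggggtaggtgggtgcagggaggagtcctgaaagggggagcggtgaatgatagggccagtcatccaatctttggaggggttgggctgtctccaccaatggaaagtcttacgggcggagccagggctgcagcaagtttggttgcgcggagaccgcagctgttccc
Pcx downstream start, chr19:4594069-4594368, plus strand: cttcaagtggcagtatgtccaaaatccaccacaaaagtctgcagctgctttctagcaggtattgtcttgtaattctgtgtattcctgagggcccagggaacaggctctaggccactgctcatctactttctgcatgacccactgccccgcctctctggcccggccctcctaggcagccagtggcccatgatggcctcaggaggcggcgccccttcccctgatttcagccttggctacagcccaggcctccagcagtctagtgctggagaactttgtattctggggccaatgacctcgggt
Pdk1 upstream start, chr2:71872974-71873273, plus strand: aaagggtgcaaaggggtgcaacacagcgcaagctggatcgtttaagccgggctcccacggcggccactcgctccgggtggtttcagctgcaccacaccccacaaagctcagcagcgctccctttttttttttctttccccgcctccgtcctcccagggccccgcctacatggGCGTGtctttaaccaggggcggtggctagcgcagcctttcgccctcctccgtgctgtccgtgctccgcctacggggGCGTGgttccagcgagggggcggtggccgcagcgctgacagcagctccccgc
Mpc1 upstream start, chr17:8283537-8283836, plus strand: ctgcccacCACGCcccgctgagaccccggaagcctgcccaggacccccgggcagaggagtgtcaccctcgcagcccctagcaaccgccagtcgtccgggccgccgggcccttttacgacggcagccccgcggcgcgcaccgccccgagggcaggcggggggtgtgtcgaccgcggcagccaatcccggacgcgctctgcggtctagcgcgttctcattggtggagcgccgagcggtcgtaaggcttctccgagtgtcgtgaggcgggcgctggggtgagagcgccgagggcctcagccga

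The upstream Pcx window is rich in G and C (61.7%) and holds ACGTG at 3 places, of which 2 are the 2 strands of a single E-box that begins at position -248 from the start, while the third begins at -140. It also holds 3 CCAAT boxes on the plus strand and 2 GC boxes (GGGCGG), which are left in lower case. The downstream Pcx window holds no match to the capitalised motifs and 1 CCAAT box. The Pdk1 window holds GCGTG at 2 places, beginning at positions -78 and -2 from the start, and 2 GC boxes, with none of the other motifs, and a second Pdk1 window, at chr2:71874654-71874953, holds no match to any of them. In the Mpc1 window, the single capitalised match is GCGTG on the minus strand. A further Mpc1 window, at chr17:8284204-8284503, holds 1 match to the antioxidant core on the plus strand. These letters are common: over all 32851 windows, 19.6% hold ACGTG, 32.4% GCGTG, 7.15% CACGTG, 12.4% TGACNNNGC, 35.7% GGGCGG and 37.4% CCAAT, while 0.0396% hold the PPAR repeat and 0.423% the estrogen-related receptor element. Genes whose groups overlapped hold them too: a Pdk2 window has an E-box, the Pdha1 window has GCGTG at 4 places and the Pdhb window has the antioxidant core. The Mpc2 window has GCGTG at 1 place, while that of Dlat, whose groups also overlapped, holds none of the capitalised motifs. The window of Pdk3, whose groups stood apart, holds ACGTG at 1 place and GCGTG at 3. Any bearing of these matches on the differences was not tested. A match is only a run of letters.

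Lrfn4, a coding gene on the opposite strand, lies within the span of Pcx without sharing exon bases. It averaged 1210 counts per library with 4-OI and 967 with DMSO, not scaled for library totals. The transcript length implied by Pcx counts and FPKM, 3697 ± 39 bases with 4-OI and 3697 ± 146 bases with DMSO (SD, n = 4 each), overlapped between the groups. The same overlap held for all 10 genes.

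The core genes of the complex were much more abundant and differed little. Pdha1, the E1 alpha subunit that the kinases phosphorylate (chromosome X, 160122209 to 160138413, minus strand), had 263, 255, 268 and 270.3 CPM in the 4-OI libraries, against 265, 264, 271 and 263 CPM in the DMSO libraries. The groups overlapped throughout. Its log2 fold change came to -0.01 (standard error 0.02, 95% confidence interval -0.06 to 0.04), and the sign turned with scaling by library totals (0.01). Exons of Map3k15 on the opposite strand overlap those of Pdha1, but Map3k15 averaged 13.2 unscaled counts with 4-OI and 16.5 with DMSO. Pdha2, the testis form of E1 alpha, had 1 count in all 4-OI libraries together and 0 in the DMSO libraries.

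Pdhb, the E1 beta subunit (chromosome 14, 8165996 to 8173025, minus strand), had 107.5, 107.1, 106.1 and 111 CPM in the 4-OI libraries, against 104, 108, 103 and 103.5 CPM in the DMSO libraries. Its log2 fold change was 0.04 with a 95% confidence interval of -0.01 to 0.10. Dlat, the E2 subunit that carries the lipoyl arm and hands the acetyl group to coenzyme A (chromosome 9, 50634633 to 50659780, minus strand), had 88.2, 86.1, 93.5 and 91.3 CPM in the 4-OI libraries, against 87.4, 86.3, 86.1 and 86.2 CPM in the DMSO libraries. Both pairs of groups overlapped. The log2 fold change of Dlat was 0.05 with a 95% confidence interval of -0.01 to 0.12, so the intervals of these 3 subunits reach no further than 0.12 up and 0.06 down.

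Per length, Pdhb and Pdha1 were the highest of the 10 genes in both groups, and these neighbours in the order overlapped. Their order rests on length, since by CPM Pdha1 was the higher. The implied length of Pdhb was 936 ± 48 bases with 4-OI and 924 ± 67 bases with DMSO. That of Pdha1 was 2528 ± 17 bases with 4-OI and 2522 ± 10 bases with DMSO. Pdhb averaged 158.5 ± 9.45 TPM with 4-OI and 155 ± 7.85 TPM with DMSO, and Pdha1 143 ± 3.20 TPM with 4-OI and 144 ± 2.42 TPM with DMSO (SD, n = 4 each). Pdha1 per Pdhb was 0.908 ± 0.0707 with 4-OI and 0.929 ± 0.0417 with DMSO. Pdha1 per Dlat was 3.38 ± 0.159 with 4-OI and 3.53 ± 0.165 with DMSO. The subunit transcripts thus stood in overlapping proportions in the 2 groups. Pcx per Pdha1, in contrast, was 0.158, 0.168, 0.169 and 0.155 in the 4-OI libraries, against 0.0508, 0.0526, 0.0526 and 0.0483 in the DMSO libraries, without overlap.

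**Figure D2:**
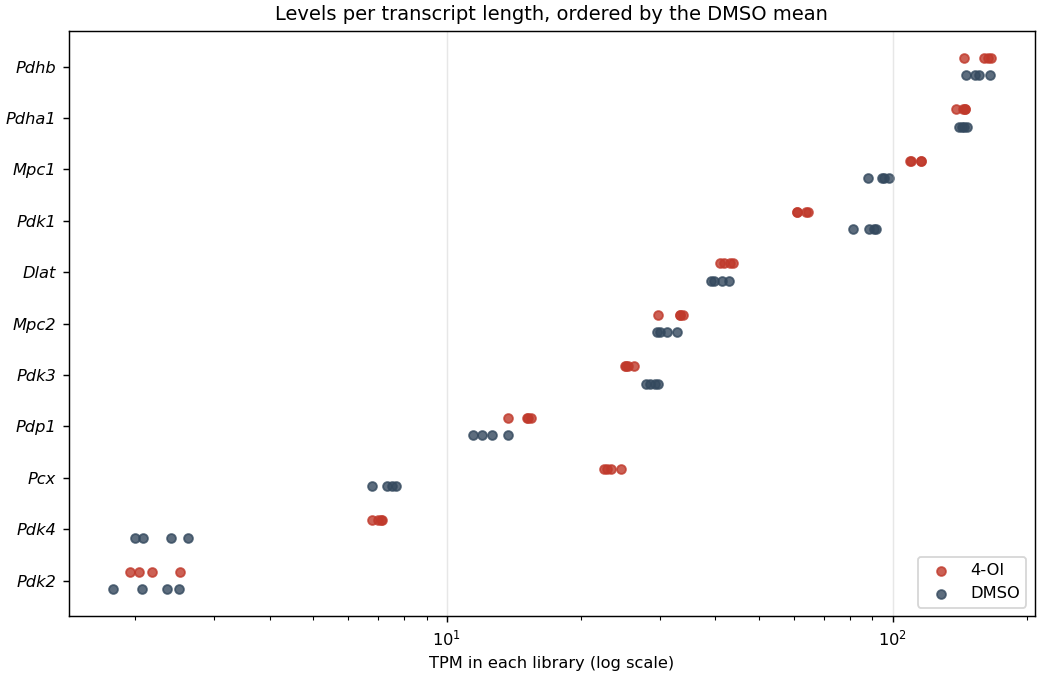
TPM of each library on a log axis, with 4-OI above DMSO in each row, for the 10 genes and for Pdk4, the remaining kinase gene. Genes run down from Pdhb (158.5 TPM with 4-OI and 155 TPM with DMSO on average) to Pdk2 (2.17 and 2.18 TPM), and Pcx shows the widest gap between the groups.

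Below the E1 genes, the level order of the 10 genes was the same in both groups except that Pcx and Pdp1 changed places. In DMSO libraries Mpc1 (94.1 ± 4.45 TPM) and Pdk1 (88.0 ± 4.68 TPM) were overlapping neighbours, followed by Dlat, Mpc2, Pdk3, Pdp1 and Pcx, of which Mpc2 and Pdk3 overlapped. In 4-OI libraries Mpc1 (113 ± 3.66 TPM) stood clear above Pdk1 (62.6 ± 1.93 TPM), and Pcx (23.3 ± 0.914 TPM) stood above Pdp1 (14.9 ± 0.798 TPM), whereas with DMSO Pcx (7.34 ± 0.387 TPM) stood below Pdp1 (12.4 ± 0.985 TPM) (SD, n = 4 each). In 4-OI libraries every neighbouring pair below Pdhb and Pdha1 was separate. Pdk2 was lowest in both groups.

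Among the kinases, Pdk1, known in many tissues as a target of hypoxia-inducible factors (chromosome 2, 71873224 to 71903858, plus strand), was the most abundant. It had 117, 116, 122 and 121 CPM in the 4-OI libraries, against 157, 174, 182.5 and 167 CPM in the DMSO libraries. Every 4-OI library was below every DMSO library, and the DMSO libraries were the more spread, with DMSO replicate 1 closest to the 4-OI group. The means were 119 ± 3.11 CPM with 4-OI and 170.2 ± 10.6 CPM with DMSO (SD, n = 4 each). The log2 fold change came to -0.51 (standard error 0.04, 95% confidence interval -0.59 to -0.44), or 1.43-fold lower with 4-OI. Pdk1 thus differed by less than Pcx, and 559 fitted genes had a log2 fold change as low or lower.

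Pdk3, the most active of the kinases in some assays but not in all (chromosome X, 93764607 to 93832201, minus strand), had 32.9, 33.6, 33.5 and 32.9 CPM in the 4-OI libraries, against 37.5, 39.0, 37.0 and 39.8 CPM in the DMSO libraries. The groups did not overlap. The log2 fold change came to -0.21 (standard error 0.04, 95% confidence interval -0.29 to -0.13). Pdk2, the most widely expressed kinase in mammalian tissues (chromosome 11, 95026258 to 95041354, minus strand), was scarce, with 75, 81, 86 and 82 counts in the 4-OI libraries, against 66, 61, 67 and 94 counts in the DMSO libraries. Its groups overlapped at 2.82 ± 0.125 CPM with 4-OI and 2.75 ± 0.262 CPM with DMSO. At this depth the 95% confidence interval of its log2 fold change, -0.22 to 0.28, could hold a change as large as that of Pdk3. The value of 0.03 turned to -0.015 without DMSO replicate 1 and to -0.008 without DMSO replicate 2.

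Pdk4, the kinase induced by fasting and fatty acids, is not among the 10 genes but completes the family. It had 16.5, 16.5, 16.3 and 15.8 CPM in the 4-OI libraries, against 5.56, 4.66, 6.15 and 4.90 CPM in the DMSO libraries, and rose without overlap (log2 fold change 1.62, edgeR adjusted p = 4.06e-13).

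Set side by side per length, Pdk1 made up 64.3% ± 0.835 of the summed kinase transcripts with 4-OI and 72.5% ± 1.15 with DMSO. Pdk3 made up 26.2% ± 0.877 with 4-OI and 23.8% ± 1.01 with DMSO. Pdk4 made up 7.22% ± 0.156 with 4-OI and 1.88% ± 0.262 with DMSO, and Pdk2 2.23% ± 0.212 with 4-OI and 1.80% ± 0.280 with DMSO, where the closest libraries both stood at 2.05% (SD, n = 4 each). Pdk4 therefore held a larger share with 4-OI in every library but remained a minor part of the pool. The kinase sum was 98.3, 96.4, 99.5 and 94.9 TPM in the 4-OI libraries, against 115, 121, 124 and 125 TPM in the DMSO libraries, 0.802 times the DMSO mean. The 4-OI libraries lay below the DMSO libraries in the sum as well. Shares of transcripts do not give shares of kinase protein or activity.

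Pdp1, the calcium-stimulated phosphatase that reactivates the complex (chromosome 4, 11958184 to 11966452, minus strand), had 23.9, 20.8, 22.9 and 23.6 CPM in the 4-OI libraries, against 17.6, 20.9, 20.7 and 18.6 CPM in the DMSO libraries. The groups overlapped because 4-OI replicate 2 lay below DMSO replicate 2, while the other 3 libraries with 4-OI lay above all of DMSO. The log2 fold change came to 0.23 (standard error 0.06, 95% confidence interval 0.11 to 0.36). The summed kinases per Pdp1 came to 6.35, 7.05, 6.59 and 6.26 in the 4-OI libraries, against 10, 8.84, 9.83 and 10.5 in the DMSO libraries. Counted against Pdp1 and its relative Pdp2 together, the ratio was 4.33 ± 0.149 with 4-OI and 6.26 ± 0.327 with DMSO (SD, n = 4 each), again without overlap.

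**Figure D3:**
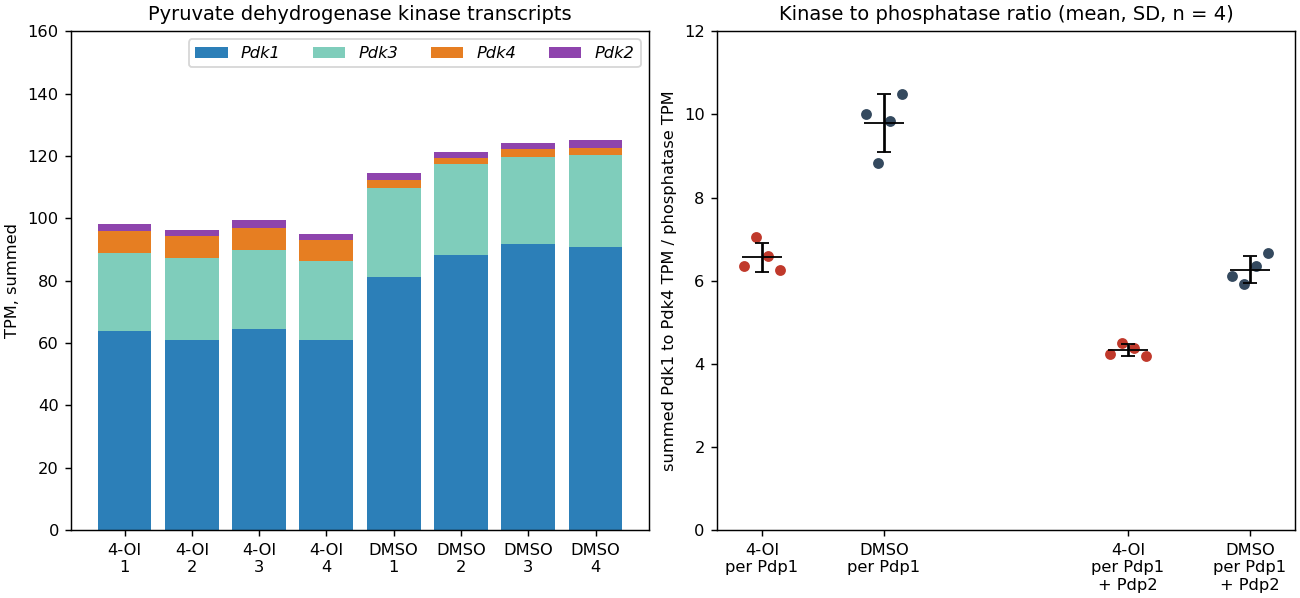
Left, stacked TPM of Pdk1 to Pdk4 in each library, 4-OI left of DMSO: the stacks reach 94.9 to 99.5 TPM with 4-OI and 115 to 125 TPM with DMSO. Right, summed kinase TPM per phosphatase TPM in each library, with lines at the means and bars of 1 SD (n = 4 a group): both ratios are lower in every 4-OI library than in any DMSO library.

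The carrier genes differed from each other. Mpc1 (chromosome 17, 8282904 to 8297661, plus strand) had 50.5, 51.9, 54.3 and 55.5 CPM in the 4-OI libraries, against 44.7, 42.3, 45.6 and 46.8 CPM in the DMSO libraries, without overlap. Its log2 fold change came to 0.24 (standard error 0.04, 95% confidence interval 0.16 to 0.33). Mpc2 (chromosome 1, 165460637 to 165481214, plus strand) had 18.0, 18.0, 16.9 and 19.0 CPM in the 4-OI libraries, against 17.1, 16.7, 16.3 and 18.5 CPM in the DMSO libraries. Those groups overlapped, and the log2 fold change was 0.06 with a 95% confidence interval of -0.05 to 0.18. Mpc1 per Mpc2, on TPM, was 3.28, 3.30, 3.88 and 3.42 in the 4-OI libraries, against 3.04, 2.97, 3.18 and 2.99 in the DMSO libraries.

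The pseudogene Mpc1-ps, which can share reads with Mpc1, had 229 counts over the 4-OI libraries and 193 over the DMSO libraries, beside 6134 and 4688 counts of Mpc1 itself. These counts are not scaled for library totals. The opposite-strand transcript 4930506C21Rik, whose exons overlap Mpc1, averaged 2.00 counts with 4-OI and 0.50 with DMSO.

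Other genes were ranked by how like their pattern was to that of Pcx and of Pdk1. A gene's profile was its log2 CPM in the 8 libraries minus its own DMSO mean, and likeness was the root mean square difference of the profiles over the 8 libraries. The ranking covered 9713 other genes with a mean of at least 5 CPM. Genes with predicted, Riken or clone names were left out, so nearer genes among those would not appear. Nearest to Pcx were Cpt1a (0.0509), Procr (0.0532), Abcc4 (0.0756), Pdk4 (0.0768) and Cbr3 (0.0782), with log2 fold changes of 1.62 to 1.72. Nearest to Pdk1 were Igfbp3 (0.0336), Egln1 (0.0373), Ciart (0.0377), Itgbl1 (0.0396) and Dkk3 (0.0418), with log2 fold changes of -0.54 to -0.47. Egln1 encodes the oxygen-sensing prolyl hydroxylase that marks hypoxia-inducible factors for breakdown, and Cpt1a the enzyme that commits fatty acids to mitochondrial import. By its construction this measure ranks genes chiefly by the size of their difference between the groups.

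Genes around the branch point were taken from 7 lists that leave out the 10 genes above, 85 genes in all. Of these, 77 could be tested on the whole table. The lists were also chosen with earlier results of these data known, so their calls are not independent evidence. With edgeR's quasi-likelihood test and Benjamini-Hochberg adjustment, 38.8% of all tested genes passed at an adjusted p under 0.05, 19.3% higher and 19.6% lower. Of the 77 genes, 17 were higher (22.1%) and 20 lower (26.0%), and 40 were not called. Scaling by library totals gave 18 higher and 15 lower in the lists. Their median absolute log2 fold change was 0.11, beside 0.12 over all tested genes.

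**Figure D4:**
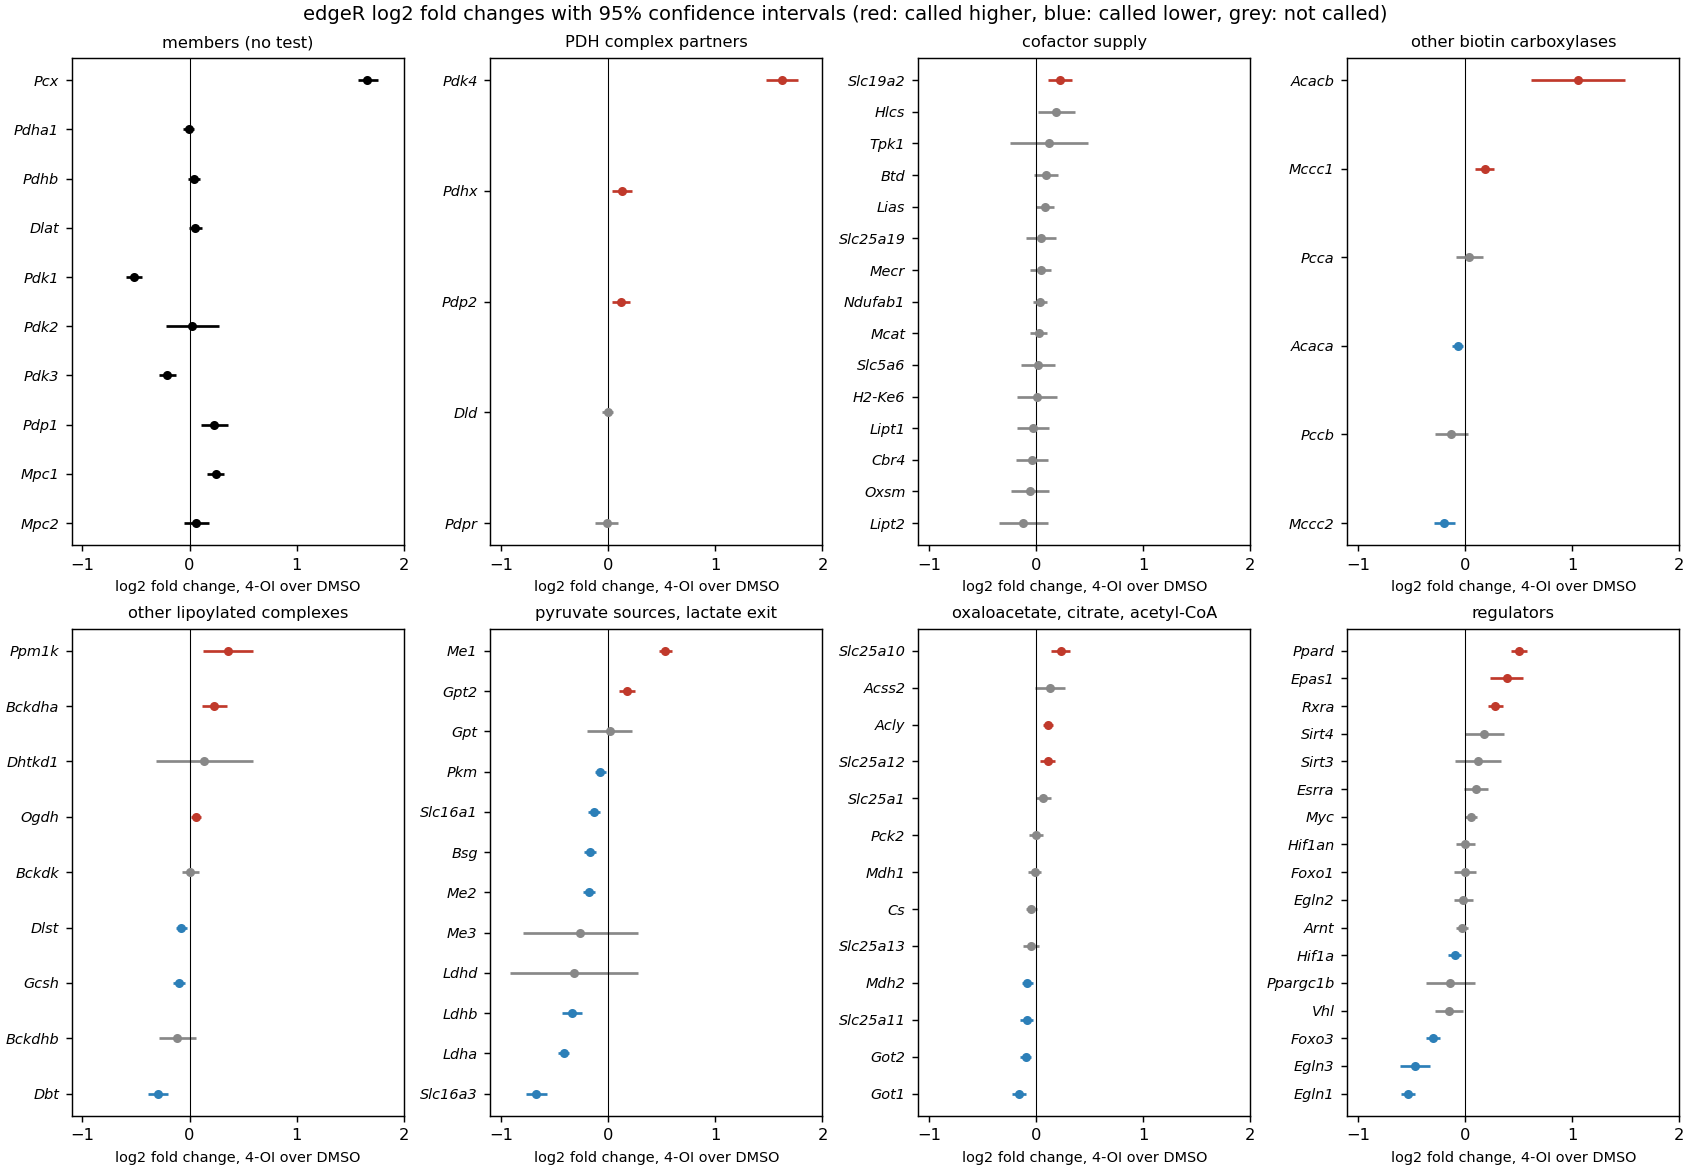
Log2 fold changes of 4-OI over DMSO with 95% confidence intervals from the edgeR fit, for the 10 genes (black, no test) and for the tested genes of the 7 lists (red called higher, blue called lower, grey not called). Pcx and Pdk4 lie far to the right of every other gene but Acacb, and genes of lactate formation and export lie to the left.

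Of the 5 other genes of the complex and its control, 3 rose, with a median log2 fold change of 0.12. Besides Pdk4, these were Pdhx, the E3-binding subunit (33.1 ± 1.04 CPM with 4-OI and 30.3 ± 1.13 CPM with DMSO, log2 fold change 0.13, edgeR adjusted p = 0.0207), and Pdp2, the second phosphatase (29.9 ± 0.433 CPM and 27.5 ± 0.737 CPM, log2 fold change 0.12, edgeR adjusted p = 0.0243). Dld, the shared E3 subunit, and Pdpr, the regulatory subunit of the phosphatase, were not called, with log2 fold changes of 0.00 and -0.01. The call of Pdhx was lost when DMSO replicate 1 or 4-OI replicate 1 was left out (edgeR adjusted p = 0.0552 to 0.0732, over all alternatives 0.00215 to 0.0732). That of Pdp2 was lost when DMSO replicate 2, DMSO replicate 4 or 4-OI replicate 3 was left out (edgeR adjusted p = 0.0526 to 0.0701, over all alternatives 0.0115 to 0.126) and with DESeq2 (adjusted p = 0.0689).

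Of 15 tested genes of lipoate, mitochondrial fatty acid, thiamine and biotin supply, 1 rose and 14 were not called, with a median log2 fold change of 0.04. The gene that rose was Slc19a2, a thiamine importer (16.8 ± 0.654 CPM with 4-OI and 14.4 ± 0.590 CPM with DMSO, log2 fold change 0.22, edgeR adjusted p = 0.002). Hlcs, the ligase that attaches biotin to pyruvate carboxylase, had a log2 fold change of 0.19 that was not called (edgeR adjusted p = 0.0781). All of its 4-OI libraries lay above all DMSO libraries, as did those of 17.4% of all fitted genes.

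Of the 6 genes for other biotin carboxylases, 2 rose and 2 fell. Acacb, the acetyl-CoA carboxylase linked to control of fatty acid oxidation, had 1.56 ± 0.207 CPM with 4-OI and 0.746 ± 0.162 CPM with DMSO, a log2 fold change of 1.05 at 14 to 49 counts per library (edgeR adjusted p = 0.000418). The subunits of methylcrotonyl-CoA carboxylase, which breaks down leucine, went opposite ways, Mccc1 by 0.18 and Mccc2 by -0.19 on the log2 scale. Acaca, the main acetyl-CoA carboxylase of fatty acid synthesis, had a log2 fold change of -0.07 and was called lower (edgeR adjusted p = 0.0378), a call that 6 of the 8 removals of a library ended (edgeR adjusted p = 0.056 to 0.114, over all alternatives 0.0326 to 0.778): those of DMSO replicates 1, 2 and 4 and 4-OI replicates 1, 3 and 4. The propionyl-CoA carboxylase genes Pcca (0.04) and Pccb (-0.13) were not called.

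The other lipoylated complexes split as well, with 3 of 9 genes higher, 3 lower and 3 not called. Dbt, the E2 subunit of the branched-chain ketoacid dehydrogenase, fell by 0.29 on the log2 scale, to 28.1 ± 0.871 CPM with 4-OI, against 34.3 ± 1.44 CPM with DMSO (SD, n = 4, edgeR adjusted p = 1.85e-05). Its E1 alpha gene Bckdha was higher (0.23) and Ppm1k, the phosphatase of that complex, was higher at 0.36, while Bckdhb (-0.11), the kinase gene Bckdk (0.01) and Dhtkd1 (0.14) were not called. Gcsh (-0.10), the lipoyl protein of glycine cleavage, and Dlst (-0.08), E2 of the oxoglutarate complex, were lower and Ogdh (0.06), its E1, was higher. Single removals ended 3 of these calls. For Ogdh they were those of any library but 4-OI replicate 3 (edgeR adjusted p = 0.0526 to 0.0937, over all alternatives 0.0115 to 0.106). For Dlst they were those of DMSO replicate 1 and 4-OI replicates 1 and 3 (edgeR adjusted p = 0.0601 to 0.108, over all alternatives 0.00376 to 0.116). For Ppm1k it was that of DMSO replicate 4 (edgeR adjusted p = 0.0563, over all alternatives 0.00447 to 0.451), and the sign of Ppm1k turned with limma on TPM.

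Pyruvate supply and lactate exit was the list with the largest share of lower genes, 7 of 12, and had a median log2 fold change of -0.17. Slc16a3, a lactate exporter, had 27.9 ± 1.60 CPM with 4-OI and 44.4 ± 2.13 CPM with DMSO, with a log2 fold change of -0.67 (quasi-likelihood edgeR adjusted p = 5.91e-10). Ldha, the main subunit of lactate dehydrogenase, had 1206 ± 18.1 CPM with 4-OI and 1607 ± 37.2 CPM with DMSO (log2 fold change -0.41), and Ldhb fell by 0.34 on the log2 scale. Smaller falls were those of Slc16a1 (-0.13), its chaperone Bsg (-0.17), the mitochondrial malic enzyme Me2 (-0.18) and pyruvate kinase Pkm (-0.07, edgeR adjusted p = 0.023). The call of Pkm was lost when DMSO replicate 2, 4-OI replicate 1 or 4-OI replicate 3 was left out (edgeR adjusted p = 0.0652 to 0.0915, over all alternatives 0.000848 to 0.123). The genes that rose were Me1, the cytosolic malic enzyme that makes pyruvate and NADPH (177 ± 5.84 CPM with 4-OI and 123 ± 3.22 CPM with DMSO, log2 fold change 0.53, edgeR adjusted p = 8.02e-12), and Gpt2, mitochondrial alanine aminotransferase (0.18). Gpt (0.01), Ldhd (-0.31) and Me3 (-0.26) were not called.

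Downstream of the branch point changes were small, with 3 of 13 genes higher, 4 lower and log2 fold changes of -0.16 to 0.23. Slc25a10, the dicarboxylate carrier (0.23), Acly, ATP citrate lyase (0.11), and Slc25a12, an aspartate-glutamate carrier (0.11), rose. The aminotransferases Got1 (-0.16) and Got2 (-0.10), the malate dehydrogenase Mdh2 (-0.08) and the oxoglutarate carrier Slc25a11 (-0.09) fell, where limma on log2(TPM + 1) did not call Got1 (limma adjusted p = 0.141). Citrate synthase Cs, which joins oxaloacetate to acetyl-CoA, had a log2 fold change of -0.04 with a 95% confidence interval of -0.10 to 0.01 and was not called. Pck2, mitochondrial phosphoenolpyruvate carboxykinase, had 0.00 with an interval of -0.07 to 0.07. The call of Mdh2 was lost when DMSO replicate 1 was left out (edgeR adjusted p = 0.0739, over all alternatives 0.0016 to 0.177), and that of Slc25a11 when DMSO replicate 4, 4-OI replicate 1 or 4-OI replicate 3 was left out (edgeR adjusted p = 0.0508 to 0.0989, over all alternatives 0.0088 to 0.181). Scaling by library totals also ended the calls of Mdh2 (edgeR adjusted p = 0.0698) and Slc25a11 (edgeR adjusted p = 0.0758).

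Among 17 tested regulators known to act on these genes or proteins, 3 rose (17.6%) and 4 fell (23.5%), near the 19.3% and 19.6% of all tested genes. Ppard, a lipid-sensing nuclear receptor, had 59.9 ± 2.11 CPM with 4-OI and 42.3 ± 0.688 CPM with DMSO (log2 fold change 0.50, edgeR adjusted p = 3.93e-10), and its partner Rxra rose by 0.28 on the log2 scale. Epas1, which encodes HIF-2 alpha, rose by 0.39. The prolyl hydroxylase genes Egln1 (-0.54) and Egln3 (-0.47) fell, as did Foxo3 (-0.30) and, by 0.10, Hif1a (edgeR adjusted p = 0.0109), whose groups overlapped and whose call was lost with limma on log2(TPM + 1) (limma adjusted p = 0.115). Ppara, Pparg and Ppargc1a had at most 12 counts in any library and were not tested.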

How the data were processed

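The 10 genes and the lists were chosen with earlier results of these data known. Per the submitters' processing notes, the tools included STAR 2.7.8a and RSEM 1.3.3 and the build was GRCm38; the annotation release and strand setting are not stated there. Per the labels' protocols, polyA RNA was sequenced as paired-end reads. The authors deposited expected counts per gene, which were whole numbers, with TPM and FPKM. For a symbol on several rows, the most abundant row was used.

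Expected counts were tested with edgeR 4.0.16 in R 4.3.3, using filterByExpr (minimum count 10), TMM scaling and a two-sided quasi-likelihood test of 4-OI against DMSO with no covariates, Benjamini-Hochberg adjusted over 13531 genes. CPM use the TMM-scaled totals. Log2 fold changes, standard errors and unadjusted 95% confidence intervals come from this fit, which was tested on simulated data. Alternatives were DESeq2 1.42.0, limma 3.58.1 on log2(TPM + 1), log2(TPM + 0.1) and log2(FPKM + 1), scaling by library totals, no filter, GC and length as offsets, a replicate block, and leaving out each library. Implied transcript lengths are the count divided by FPKM and by total count. Named genes are the 10 genes, up to 4 called genes a list by size of change, the members of counts of 5 or fewer, and the 5 nearest profiles of Pcx and of Pdk1. The markers, the genes overlapping or resembling the 10, Hlcs, Cs, Pck2, the scarce PPAR genes and the smaller falls of the lactate list were named outside this rule, after their values were seen. Within a group, the chi-square per degree of freedom between libraries was 1.86 to 4.46, and the common coefficient of variation of the edgeR fit was 3.1%. All libraries were kept as separate samples. These values cannot tell separate cultures from repeat preparations of a single culture. One immune marker of the list is not reported here. Positions are from GENCODE M21 on GRCm38. Figures were drawn with matplotlib 3.10.9.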

Additional observations from a re-analysis of the deposited data

Results flagged for a closer look

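In 9 of 106 groups of 4 libraries, 1 library stood apart from the other 3 by Dixon's test on CPM, where chance gives about 5.3. Among the 10 genes, Pdk2 was lowest in 4-OI replicate 4 at 2.63 CPM (others 2.86 to 2.90), Pdhb was highest in DMSO replicate 2 at 108 CPM (others 103 to 104), and Dlat was highest in DMSO replicate 1 at 87.4 CPM (others 86.1 to 86.3). Among the surrounding genes, 4-OI replicate 4 was lowest for Acly at 457 CPM (others 467 to 469) and Foxo3 at 68.2 CPM (others 71.4 to 71.6) and highest for Dld at 174 CPM (others 166 to 167). DMSO replicate 1 was lowest for Ldha at 1551 CPM (others 1621 to 1632) and Slc16a3 at 41.2 CPM (others 45.3 to 45.6) and highest for Acaca at 155 CPM (others 149.6 to 150.5). DMSO replicate 1 was also the lowest DMSO library for Pdk1, by a gap too small to meet this test.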

How the results depend on the processing

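For the 10 genes, 167 of 170 alternative log2 fold changes moved by less than the spread between libraries, and the others were Pcx at 1.54 with limma on log2(TPM + 1) and 1.51 on log2(FPKM + 1), and Pdk3 at -0.16 on log2(FPKM + 1). Leaving out single libraries gave 2249 to 2522 genes higher and 2369 to 2666 lower over the whole table. Library totals gave 3020 higher and 2323 lower, and GC and length correction 2596 and 3034. Limma called fewer genes in both directions: 1760 higher and 1620 lower on log2(TPM + 1), 1888 and 1535 on log2(FPKM + 1), 1750 and 1615 on log2(TPM + 0.1), and 1362 and 1284 on log2(TPM + 1) with no filter. In the lists it called 14 higher and 13 lower, 15 and 12, 14 and 13, and 13 and 11 in these settings. Of the 37 called list genes, 28 kept their call without any single library, 32 with DESeq2, 32 with library totals and 27 with limma on log2(TPM + 1). Calls lost with DESeq2 were those of Pdp2, Acaca, Ogdh, Ppm1k and Slc25a11. Library totals ended those of Acaca, Dlst, Pkm, Mdh2 and Slc25a11. Limma on log2(TPM + 1) ended those of Pdp2, Acaca, Ogdh, Dlst, Ppm1k, Pkm, Mdh2, Got1, Slc25a11 and Hif1a. Replicate numbers were shared between groups, and same-numbered libraries deviated together (correlation over 0.1) in 2 of 4 pairs. The correlations were 0.556 for replicate 1, -0.0369 for replicate 2, 0.208 for replicate 3 and -0.00116 for replicate 4. By the same measure, 4 of 8 libraries were most like their own number. With the replicate block 2526 genes were higher and 2618 lower, and 36 of the 37 calls were kept, with Ogdh lost (edgeR adjusted p = 0.0615).

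Some log2 fold changes turned sign, most of them small but also that of Ppm1k (0.36, called higher), and the cause was not tested. On log2(TPM + 1), log2(FPKM + 1) and log2(TPM + 0.1), Acaca was 0.021, 0.0288 and 0.0215, Pcca -0.141, -0.128 and -0.154, Ppm1k -0.35, -0.306 and -0.491, Dld 0.102, 0.11 (limma adjusted p = 0.0443) and 0.103, and Pdpr 0.036, 0.041 and 0.0418. With library totals Dld was 0.0133 and Pdpr 0.00521, and with no filter Dld was 0.00542. Over single libraries left out, Bckdk ranged from -0.0207 to 0.0304, Dld from -0.0197 to 0.00415, Gpt from -0.0418 to 0.0609 and Pdpr from -0.0379 to 0.011. Of the 10 genes, Pdk2 had the fewest counts, 61 to 94 a library, and the list genes Acacb, Ldhd, Me3 and Dhtkd1 had fewer still (11 to 49).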
